A study of Delphinium anthriscifolium with 89 samples.

Results

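Lateral petals and lateral sepals lie next to each other in the flower of the larkspur Delphinium anthriscifolium, a member of the buttercup family. Their transcripts were compared at floral stage S12. The comparison used every library titled lateral non-spurred petals S12 (3 libraries) or lateral non-spurred sepals S12 (3 libraries), which are 6 of the 89 libraries of the series. Nothing measured entered that choice. Beside them, the series holds spurred dorsal petals, dorsal and ventral sepals, stamens and carpels at S9, S10, S12 and S16, leaves, bracts and 4 libraries from a silencing experiment.

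All plants of the 6 libraries carry the genotype label WT, and no treatment is given for them. Total RNA was taken from each organ with a kit for plant tissue. No plant age is given, and it is not stated whether organs of several flowers were pooled. The labels also do not say that replicates came from separate plants. What the p-values measure is therefore how far these libraries scatter, and that scatter may be technical. In such bulk RNA, fewer cells of a type and less RNA per cell cannot be told apart.

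In the common model of floral organ identity, sepals form without the B-class MADS-box genes, while petals need them and share them with stamens. In the buttercup family one branch of the B-class APETALA3 genes is tied to petals. In larkspurs the sepals are the large coloured organs, and the dorsal petals carry a nectar spur that sits inside the spur of the dorsal sepal. The lateral petals are flat, spurless blades in front of the stamens and carpels. The deposited files identify transcripts by assembly ID alone, so the genes of this model were not looked up by name. A feature below is 1 assembled transcript with its predicted reading frame, given by its transcript ID.

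The 6 libraries held 10404239, 11535908 and 10026651 estimated counts in lateral petals and 9812211, 11192260 and 7328293 in lateral sepals. Of the 32115 features in the table, 21227 to 23164 were detected in each. A count of 3 in 1 library equals 0.26 to 0.409 CPM, the count relative to the scaled size of its library. Log2 CPM values correlated between 0.951 and 0.973 within lateral petals, between 0.919 and 0.964 within lateral sepals and between 0.832 and 0.89 across the organs. These correlations run over features of libraries that share the same assembly. No pair of replicates agreed within counting noise. Among libraries used beside these 6, dorsal sepals S12 replicate 3 (18151 features), ventral sepals S12 replicate 3 (19166), lateral sepals S9 replicate 1 (9877), lateral petals S10 replicate 1 (17897), lateral petals S16 replicate 3 (14692), lateral sepals S16 replicate 3 (16147) and ventral sepals S16 replicate 3 (9926) stood apart by few detected features. Further libraries of S9, S10 and S16 that enter the plots by stage were low too. Among them were stamens S16 replicate 3 (11345), carpels S10 replicate 1 (13139), stamens S10 replicate 1 (14943), stamens S9 replicate 1 (14972) and carpels S16 replicate 3 (15546). These stamen and carpel libraries also entered the picking of the organ sets described below.

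The organ labels were checked with features picked in other libraries. Of these, 403 were at least 2-fold higher at S12 in dorsal petals than in dorsal sepals and than in ventral sepals, each with adjusted p under 0.05, and 1227 were lower in the same way. Of the petal-side features, 375 could be tested in the lateral pair. Among them 237 (63.2%) were higher in lateral petals and 1 was lower, where 5.04% of all features tested were higher. Of the sepal-side features 1208 could be tested. Among them 957 (79.2%) were lower in lateral petals and 3 were higher, where 12.1% of all features tested were lower. The median log2 fold change of lateral petals over lateral sepals was 1.35 for the petal-side and -1.93 for the sepal-side features, against 0.03 for all features tested. With both lists picked without replicate 3 of dorsal and of ventral sepals, the medians were 1.18 and -1.72. The mean log2 CPM of the petal-side list minus that of the sepal-side list was 0.72, 1.33 and 1.18 in the 3 lateral petal libraries and -2.73, -2.39 and -2.58 in the 3 lateral sepal libraries. The organs did not overlap, and the sign matched the label in each library. Lateral petals lay between lateral sepals and dorsal petals (2.42 to 2.79), whose libraries had picked the lists.

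At S12 far more features were lower than higher in lateral petals. Of 18541 features tested by edgeR's quasi-likelihood test, 3172 (17.1%) differed at a Benjamini-Hochberg adjusted p under 0.05. Of these, 935 (5.04%) were higher and 2237 (12.1%) were lower in lateral petals, so 70.5% of the calls were lower. With the spread estimated over 22 lateral libraries of all stages, 125 were higher and 573 lower (82.1% of the calls). The higher count was 458 without petal replicate 2, 481 without petal replicate 3 and 588 without sepal replicate 1, while the share of calls that were lower lay between 66.3% and 77.1% when any library was left out. The excess of lower features grew with the size of the difference. At least 2-fold differences were called for 605 features higher (3.26%) and 1713 lower (9.24%), at least 8-fold differences for 88 (0.475%) and 382 (2.06%), and at least 32-fold differences for 19 and 123. Differences under 2-fold made up 330 of the higher and 524 of the lower calls. The median log2 fold change was 1.25 among features called higher and -1.56 among those called lower.

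**Figure D1:**
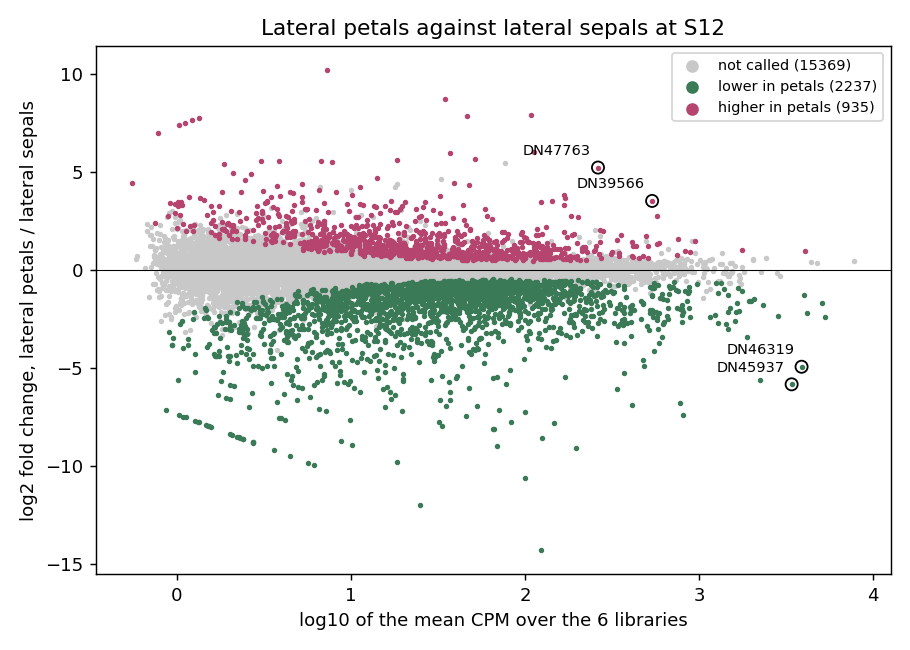
Each point is 1 of the 18541 features tested at S12, plotted by the log10 of its mean CPM over the 6 libraries (x axis) and its log2 fold change of lateral petals over lateral sepals (y axis); the 4 circled features are named in the text. The 2237 features lower in petals reach further from 0 and to higher CPM than the 935 features higher in petals.

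The libraries of the 2 organs were fully separated for 933 of the 935 features called higher and for 2232 of the 2237 called lower. Among all features tested, the 3 petal libraries lay above the 3 sepal libraries for 3187 features (17.2%) and below them for 3622 (19.5%). Separation without a call was thus seen for 2254 features in the petal direction and 1390 in the sepal direction. The median standard error of a log2 fold change, back-calculated from the test's F statistic, was 0.26 over all features tested.

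Sepal-high features were also the more abundant ones. They had a median of 46.4 CPM in lateral sepals and 16.1 CPM in lateral petals. Petal-high features had a median of 31.5 CPM in lateral petals and 13 CPM in lateral sepals. The share of features called grew with the level in the higher organ, from 7.83% of 5851 features at 1 to 10 CPM to 19% of 10157 at 10 to 100 CPM and 31.8% of 2470 above 100 CPM. The share of calls lower in petals grew over the same classes, from 61.4% to 70% and 77.1%. The counting error of a feature falls as its level rises, and its part in the growing share of calls was not tested.

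These differences took up a large part of each library. Sepal-high features held 30.9%, 30.7% and 33% of the counts in the 3 lateral sepal libraries, and 11.5%, 11% and 11.6% in the 3 lateral petal libraries. Petal-high features held 8.31%, 8.6% and 8.46% of the counts in lateral petals, and 3.17%, 3.29% and 3.11% in lateral sepals. These shares describe features that were chosen on the same counts. The 382 features at least 8-fold lower in petals alone held 4.73% to 5.17% of the sepal counts and 0.277% to 0.299% of the petal counts. The 88 features at least 8-fold higher held 0.511% to 0.588% of the petal counts and 0.0282% to 0.0352% of the sepal counts.

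A complete absence from 1 organ was rare. Among the features called, 6 higher in petals had no count in the 3 sepal libraries, and the most abundant of these had 14.5 CPM in petals. In the other direction 27 features called lower had no count in the 3 petal libraries, and the most abundant had 248 CPM in sepals. The calls fell in 3032 of the 26584 assembly genes named by the IDs. In 121 genes at least 2 features were called, all in 1 direction in 109 of these genes and in both directions in 12. Features of a gene with more than 1 feature can share reads, and their separate values are uncertain. They made up 25.1% of the features tested and 21.4% of those called.

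In each direction, the 2 most abundant features called with at least an 8-fold difference and no overlap of the organs are described here. Their separation at S12 was thus a condition of the choice. Each is the sole feature of its assembly gene. DN39566_c0_g1_i1 stood at 1140, 927 and 901 CPM in lateral petals and at 88, 96.4 and 74.3 CPM in lateral sepals. The petal libraries were all far above the sepal libraries. The means were 990 ± 133 and 86.2 ± 11.2 CPM (SD, n = 3), a log2 fold change of 3.52 (SE 0.2, edgeR adjusted p = 3.16e-05) or 11.5-fold. Its petal level was low before S12. With all libraries scaled together it read 161, 147 and 147 CPM in lateral petals at S10, where lateral sepals read 80.6, 97.9 and 186 CPM and overlapped them. At S16 lateral petals read 1410, 1150 and 1820 CPM against 181, 156 and 183 CPM in lateral sepals. On that scale stamens at S12, at 896 to 1750 CPM, overlapped lateral petals at 876 to 1100 CPM, and dorsal petals held 430 to 781 CPM. Carpels (142 to 222 CPM), dorsal sepals (124 to 148 CPM) and ventral sepals (51.6 to 58.7 CPM) were lower.

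DN47763_c0_g2_i1 stood at 696, 378 and 464 CPM in lateral petals and at 18.8, 8.34 and 14.2 CPM in lateral sepals. The organs were again fully separated. The means were 512 ± 164 and 13.8 ± 5.22 CPM (SD, n = 3), a log2 fold change of 5.22 (SE 0.38, edgeR adjusted p = 7.76e-05) or 37.4-fold. The separation was present at S10, where lateral petals read 189, 393 and 352 CPM and lateral sepals 31, 47.8 and 38.3 CPM. By S16 lateral petals had 29, 29.3 and 61.3 CPM and lateral sepals 5.38, 2.91 and 3.63 CPM, so both organs were lower than at S12 and still apart. Its S12 level was highest in dorsal petals, at 1200 to 1450 CPM. It was also high in stamens (518 to 1020 CPM) and carpels (494 to 533 CPM), and low in bracts (1.75 to 3.97 CPM) and leaves (0.0959 to 8.48 CPM). High levels in all inner organs and low levels in sepals, bracts and leaves thus marked this feature.

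DN46319_c2_g2_i1 stood at 199, 228 and 310 CPM in lateral petals and at 5410, 5730 and 11400 CPM in lateral sepals. Even the lowest sepal library was far above the highest petal library. The means were 246 ± 57.5 and 7530 ± 3390 CPM (SD, n = 3), a log2 fold change of -4.94 (SE 0.39, edgeR adjusted p = 0.000114), 30.6-fold lower in petals. Dorsal sepals (6870 to 7560 CPM) and ventral sepals (4690 to 7880 CPM) at S12 covered much the same range as lateral sepals. Leaves held still more, at 10900 to 17300 CPM, and bracts held 5120 to 10000 CPM. Stamens (11.3 to 37 CPM), dorsal petals (60.5 to 85 CPM) and carpels (158 to 175 CPM) were low. The feature was thus high in leaves, bracts and all 3 sepal types, and low in petals, stamens and carpels.

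DN45937_c0_g1_i3 stood at 143, 92.8 and 117 CPM in lateral petals and at 7100, 5610 and 7410 CPM in lateral sepals. No petal library came near a sepal library. The means were 118 ± 25.2 and 6700 ± 963 CPM (SD, n = 3), a log2 fold change of -5.83 (SE 0.28, edgeR adjusted p = 2.01e-05), 57-fold lower in petals. Its sepal level peaked at S12. Lateral sepals read 548, 911 and 823 CPM at S10 and 108, 87.2 and 69 CPM at S16, on the joint scale on which they read 6500, 5350 and 6790 CPM at S12. Lateral petals peaked at S12 as well, with 16, 8.63 and 3 CPM at S10 and 50.2, 16.4 and 10.6 CPM at S16. These 4 features were called in all 14 alternative analyses of the S12 comparison.

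**Figure D2:**
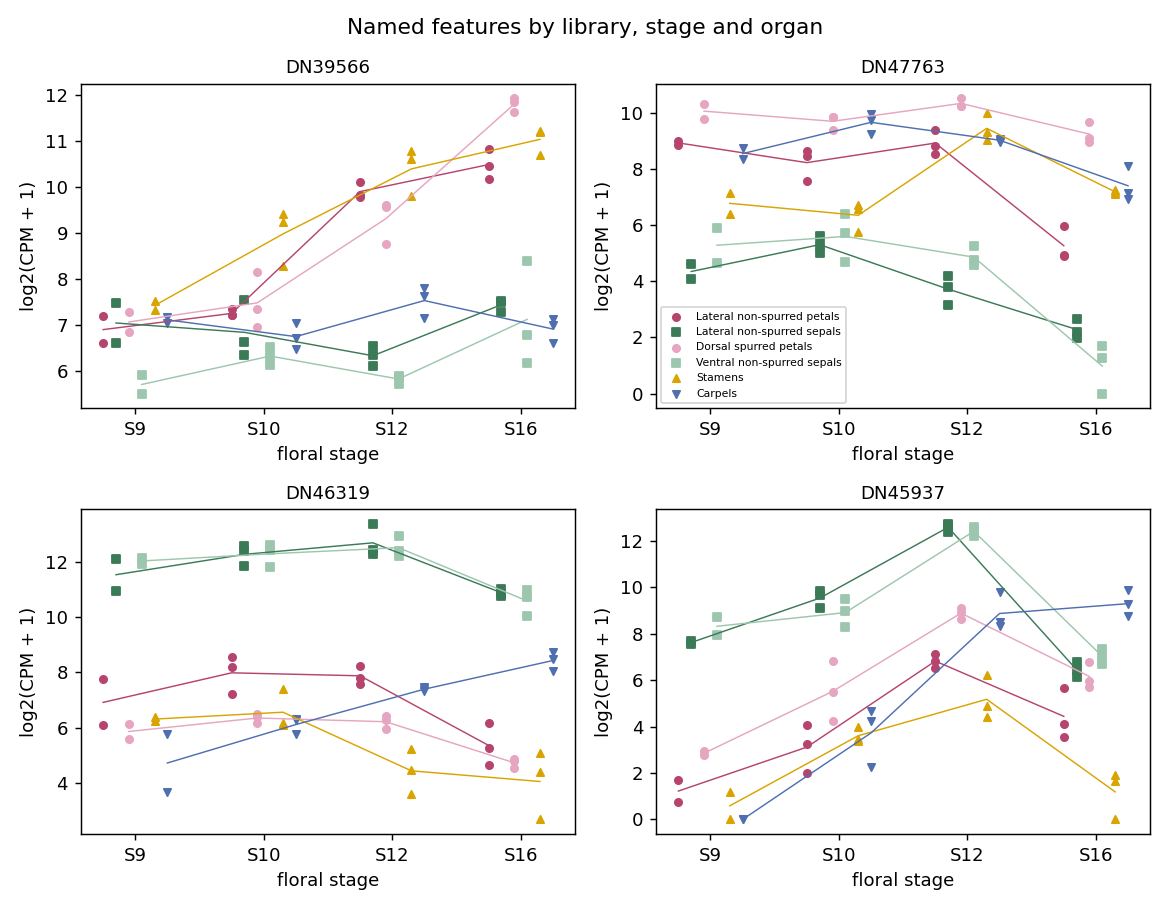
Points are libraries and lines join group means of log2(CPM + 1) (y axis) at stages S9, S10, S12 and S16 (x axis) for the 4 named features, in lateral and dorsal petals, lateral and ventral sepals, stamens and carpels. Upper panels show the 2 features higher in lateral petals at S12, DN39566 and DN47763, and lower panels the 2 features lower there, DN46319 and DN45937; the sepal level of DN45937 peaks at S12, at 5350 to 6790 CPM in lateral sepals.

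Features typical of bracts and leaves were lower in lateral petals than in lateral sepals. The sets were drawn from leaf, bract, stamen and carpel libraries alone, with at least a 4-fold difference and adjusted p under 0.05 against each other organ kind. Bracts are the leaf-like organs below the flower buds. Of 63 bract-set features tested (74 in the set), 45 (71.4%) were lower in lateral petals and 0 higher, with a median log2 fold change of -2.65. Of 27 leaf-set features tested (28 in the set), 14 (51.9%) were lower and 1 was higher, with a median of -0.78. A larger vegetative set held 1844 features at least 4-fold higher in the mean of leaves and bracts than in stamens and than in carpels. Of its 1384 tested members, 701 (50.7%) were lower in petals and 17 were higher, with a median of -1.17. Over all features tested, 12.1% were lower, 5.04% were higher and the median was 0.03. The vegetative set contains 9 of the leaf-set and 29 of the bract-set features, so the sets are not separate. Without a filter on low counts, 72 bract-set features gave 44 lower and 0 higher, 28 leaf-set features 14 lower and 1 higher, and 1814 vegetative-set features 717 lower and 16 higher.

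The median log2 CPM of the bract set was 3.24, 3.04 and 2.55 in the 3 lateral petal libraries and 6.04, 5.93 and 5.92 in the 3 lateral sepal libraries. For the leaf set it was 5.38, 5.15 and 5.25 in petals and 5.97, 5.92 and 5.96 in sepals. Both sets were lower in each petal library than in each sepal library, the bract set by far more. The vegetative set held 4.41%, 4.45% and 4.95% of petal counts and 14%, 15.2% and 15.8% of sepal counts. With members picked at 2-fold in place of 4-fold, the medians were -1.12 for bract, -0.62 for leaf and -0.77 for vegetative features, so the bract value fell in size and kept its sign.

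Features typical of stamens and carpels leaned towards lateral petals. Of 350 stamen-set features tested (709 in the set), 57 (16.3%) were higher in petals and 17 lower, with a median log2 fold change of 0.49. Of 124 carpel-set features tested (205 in the set), 25 (20.2%) were higher and 7 lower, with a median of 0.67. Over all features tested, 5.04% were higher, 12.1% were lower and the median was 0.03. Most members did not pass the test in either direction, 276 in the stamen set and 92 in the carpel set. Many members were too low to be tested here: 42 stamen-set and 9 carpel-set features had no count in any of the 6 libraries. Without a filter on low counts, 667 stamen-set features gave 52 higher and 17 lower, and 196 carpel-set features gave 27 higher and 7 lower, where all 25148 features with a count gave 891 higher and 2176 lower.

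The median of the stamen set depended on 1 petal library. The median log2 CPM of the stamen set was 2.37, 3.32 and 2.31 in the petal libraries and 2.16, 2.03 and 2.43 in the sepal libraries. Petal replicate 2 was high, and the other petal libraries overlapped the sepals. Without petal replicate 2 the median log2 fold change of the stamen set was 0.11, and it lay between 0.46 and 0.68 without any other of the 6 libraries. The share of tested members called higher was lower without any 1 library, at 10.5% to 14.2%. It was lowest without sepal replicate 2 (10.5%) or sepal replicate 1 (10.6%). Over all features, 710 of 19054 tested were called higher without sepal replicate 2 and 588 of 19128 without sepal replicate 1. With every library these were 935 of 18541. As a share of counts, the set held 2.38%, 2.25% and 1.63% in the petal libraries and 1.55%, 1.15% and 1.23% in the sepal libraries, without overlap. The part of RNA from adjoining stamens in these values was not tested. The carpel set had medians of 2.46, 2.88 and 2.9 in petals and 1.71, 1.96 and 2.34 in sepals, which did not overlap. Its median log2 fold change ran from 0.45 to 1.07 when any of the 6 libraries was left out. Its share higher ran from 13.2% without petal replicate 2 and 13.3% without petal replicate 3 to 28.7% without sepal replicate 3. Calls over all features moved the same way. Without petal replicate 2, 458 of 18826 features tested were higher. Without petal replicate 3 these were 481 of 18948, and without sepal replicate 3 they were 1302 of 19047.

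**Figure D3:**
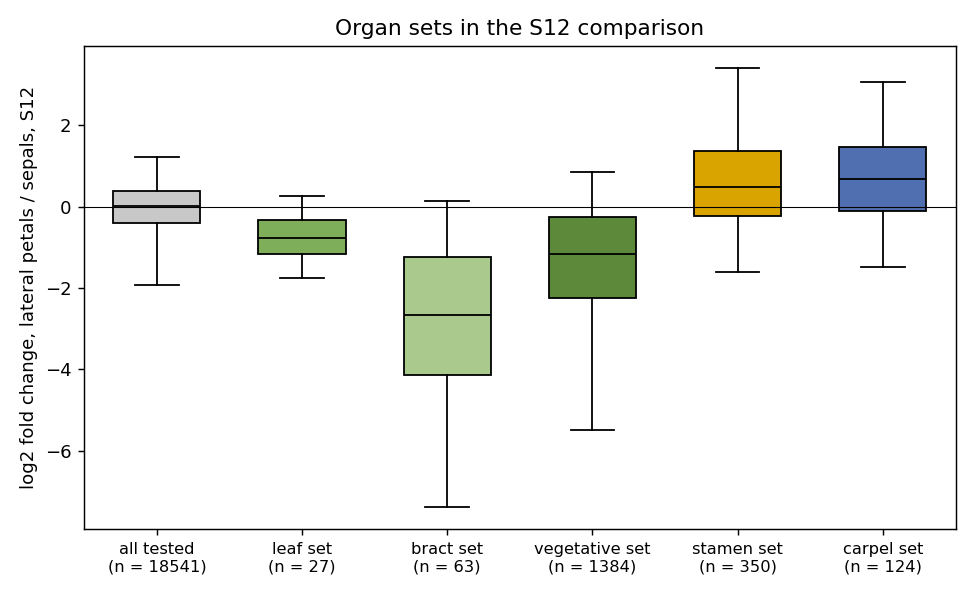
Boxes give the quartiles and median of the log2 fold change of lateral petals over lateral sepals at S12 (y axis) for all features tested and for each organ set (x axis, n tested in brackets); whiskers run from the 5th to the 95th percentile. The bract set (median -2.65) and the vegetative set (-1.17) lie mostly below 0, while the stamen (0.49) and carpel (0.67) sets lie slightly above it.

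The organ in which a feature was highest outside petals and sepals told the same lists apart. Of the 935 petal-high features, 36.9% were highest in stamens at S12, 38% in carpels at S12, 16% in leaves and 9.09% in bracts. Of the 2237 sepal-high features, 14.7% were highest in stamens, 7.47% in carpels, 32.7% in leaves and 45.1% in bracts. Among all features tested the shares were 29.8%, 24.8%, 20.5% and 24.9%. Petal-high features were thus more often highest in a reproductive organ, and sepal-high features more often in a vegetative organ, than the features tested as a whole. This is a description, with no test.

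Ventral sepals at S12 gave a reference outside the 6 libraries. Their median log2 CPM was near that of lateral sepals for petal-high (3.54 against 3.59) and sepal-high features (5.44 against 5.41). The choice of the lists on lateral sepals can thus by itself make petal-high features lean higher, and sepal-high features lower, in any organ set against ventral sepals. The comparisons below were added after the data were seen. They share the ventral sepal libraries among themselves, and their values are set side by side. Of the tested petal-high features, 311 of 894 (34.8%) were called higher in stamens than in ventral sepals, 394 of 900 (43.8%) in carpels, 310 of 877 (35.3%) in leaves and 210 of 874 (24%) in bracts. In those comparisons 12.3%, 13.3%, 20.2% and 13.6% of all features were called higher. Of the tested sepal-high features, 1430 of 2221 (64.4%) were called lower in stamens, 1477 of 2225 (66.4%) in carpels, 899 of 2230 (40.3%) in leaves and 575 of 2234 (25.7%) in bracts, where 14.6%, 15.8%, 21% and 15% of all features were called lower. In either direction 26.8%, 29.1%, 41.2% and 28.6% of all features were called. Sepal-high features were called higher than in ventral sepals at shares near those of all features, 22% in leaves (20.2% of all) and 15.1% in bracts (13.6% of all). Petal-high features were called lower in leaves for 15.6% and in bracts for 14%, where 21% and 15% of all features were lower. Without ventral sepal replicate 3 the petal-high shares were 38.6%, 49.2%, 36.3% and 26%, where 15.1%, 17.7%, 22.7% and 16% of all features were higher. The sepal-high shares were then 67.1%, 73%, 39.1% and 25.9%, where 15.9%, 19.3%, 22.1% and 15.7% of all features were lower.

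Most features that separated the lateral organs leaned the same way between dorsal petals and dorsal sepals, which share no library with them. In the dorsal pair 713 features (3.74%) were called higher and 1747 (9.15%) lower in petals, of 19085 tested. Of 915 features higher in lateral petals and tested there, 340 (37.2%) were called higher and 13 lower in dorsal petals, and 91% had a positive fold change. Their median log2 fold change was 0.99 in the dorsal pair and 1.23 in the lateral pair that had chosen them. Of 2214 features lower in lateral petals, 1184 (53.5%) were called lower and 2 higher in dorsal petals, 3.03% were positive, and the median was -1.32 against -1.54. The shared features made up 50.4% of the dorsal calls higher and 70.4% of those lower, among features tested in both pairs. Without dorsal sepal replicate 3 the dorsal pair gave 3992 calls (20.1%), with 1419 higher (7.14%) and 2573 lower (12.9%), and the shared features were 53.2% and 70.7% of the lateral lists. With the replicate number as a block it gave 1494 higher and 2421 lower calls. Leaving out another library lowered the calls, to 229 higher and 947 lower without dorsal petal replicate 2, 240 and 1009 without dorsal petal replicate 3, 272 and 1148 without dorsal sepal replicate 1, 385 and 1289 without dorsal sepal replicate 2 and 436 and 1269 without dorsal petal replicate 1. Dorsal petals against ventral sepals, a comparison that shares the dorsal petals, gave 1001 higher (5.23%) and 1885 lower (9.85%) of 19142 features tested. There 443 of 914 petal-high features (48.5%) were called higher and 1305 of 2227 sepal-high features (58.6%) lower. Without ventral sepal replicate 3 the shares were 61.4% and 71.5%, where 9.18% of all features were higher and 13.4% lower. Across the dorsal and lateral pairs, Pearson's r of the 2 log2 fold changes was 0.75 over 18273 features and Spearman's rho 0.67; features of the same libraries are not independent.

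**Figure D4:**
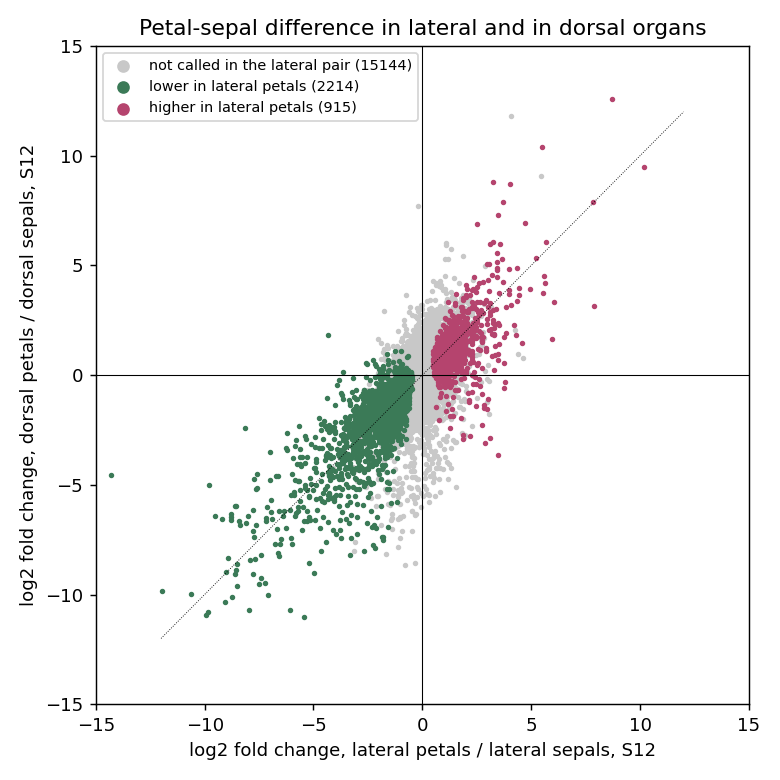
Each point is a feature tested in both pairs, with its log2 fold change at S12 in lateral petals over lateral sepals (x axis) and in dorsal petals over dorsal sepals (y axis); the dotted line marks equal values. Of the 915 features higher in lateral petals 91% lie above 0 on the y axis, and the column of grey points far below 0 marks features low in dorsal petals and little changed in the lateral pair.

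A direct test asked whether the petal-sepal difference itself differed between lateral and dorsal organs. Of 19704 features, 269 (1.37%) did by edgeR's interaction test. The lateral difference was the more positive for 221 (1.12%) and the more negative for 48 (0.244%). Of the 216 positive features tested in each pair, 126 were called lower in dorsal petals alone, 49 were called lower in both pairs and 20 were called higher in lateral petals alone. Another 13 were called in opposite directions, 4 higher in both and 4 in neither. The 45 negative features split into 13 called higher in dorsal petals alone, 13 lower in both, 13 lower in lateral petals alone, 4 higher in both and 2 called in opposite directions. The calls of each pair and the interaction test use the same S12 libraries, so nothing is read from these splits. Petals differed more than sepals between the positions for 182 of the 269 features. Among positive features the median log2 difference of lateral over dorsal organs was 1.87 in petals and -1.71 in sepals, and among negative features it was -1.91 in petals and 0.25 in sepals. Over all features tested it was 0 in petals and 0.03 in sepals. The same libraries chose the interaction features, so this count and these medians carry no test. Without dorsal sepal replicate 3 the test gave 224 positive and 65 negative features, of which 201 and 39 were among those above. With the replicate number as a block it gave 487 and 188. The negative count fell to between 22 and 30 without any 1 of the 3 lateral petal libraries, the 3 lateral sepal libraries, dorsal petal replicates 1 and 3 or dorsal sepal replicate 2, with its lowest values of 22 without lateral petal replicate 3 and 24 without dorsal petal replicate 3. The positive count lay between 154 and 224 when any library was left out.

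The features with the largest interaction estimates were low in dorsal petals or in lateral petals. DN30693_c0_g1_i1 read 0.0477, 0 and 0 CPM in dorsal petals, which is 1 count, and 7.54, 7.37 and 10.3 CPM in dorsal sepals. In the lateral organs it read 1.99, 0.747 and 1.22 CPM in petals and 0.742, 0.905 and 0 CPM in sepals, which overlapped. The ratio of dorsal sepals to dorsal petals was 489 (95% counting interval 86.8 to 19400), and the interaction was 9.49 on the log2 scale (SE 1.37, edgeR adjusted p = 0.00357). DN46889_c0_g3_i1 had no count in dorsal petals and 7.29, 14.9 and 13.8 CPM in dorsal sepals, at least 239-fold more by a floor of 3 counts over the group. It read 0.723, 0.374 and 0.611 CPM in lateral petals and 3.29, 3.44 and 0.543 CPM in lateral sepals, with an interaction of 8.1 (SE 1.29, edgeR adjusted p = 0.0111). Both interactions were called in all 15 alternative analyses.

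In the opposite direction, DN33714_c0_g1_i1 had no count in the 3 lateral petal libraries and 363, 109 and 214 CPM in lateral sepals. That difference was at least 2740-fold. Dorsal petals kept 12.2, 2.47 and 3.17 CPM, below the 230, 78.2 and 99.4 CPM of dorsal sepals, so the feature was lower in both petal types and undetected in 1. Its interaction was -9.93 (SE 1.91, edgeR adjusted p = 0.0353) and was lost in 8 of 15 alternatives, where the adjusted p reached 0.116. DN17121_c0_g2_i1 read 7.92, 14.4 and 4.21 CPM in dorsal petals and 0.628, 0.933 and 0 CPM in dorsal sepals. In lateral organs it read 0.181, 0.149 and 0.262 CPM in petals, which is 7 counts, and 2.12, 1.99 and 0.271 CPM in sepals, which is 44 counts. The petal values and sepal replicate 3 lay near or below the level of 3 counts in 1 library. The order of the lateral organs is therefore uncertain. Its interaction of -6.83 (SE 1.32, edgeR adjusted p = 0.0229) was lost in 7 of 15 alternatives, where the adjusted p reached 0.0943.

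With all libraries in the fits, S12 gave the most calls of the 4 stages in which lateral petals and lateral sepals were sampled. At S10, 1431 of 18054 features tested (7.93%) were called, 313 (1.73%) higher and 1118 (6.19%) lower in lateral petals. At S16, 684 of 17216 (3.97%) were called, 212 (1.23%) higher and 472 (2.74%) lower. At S9, with 2 libraries a group, edgeR called 0 of 17453 features, while 1701 had an unadjusted p under 0.05 and DESeq2 called 378. Calls were mostly lower in petals at both S10 and S16. The number of calls depends on the spread at each stage. A measure of that spread, the common biological coefficient of variation, was 1.2 at S9, 0.42 at S10, 0.28 at S12 and 0.61 at S16. S12 thus had the most calls and the smallest spread, and the part of the spread in the order of the stages was not tested. The S16 count fell to 121 and 190 without petal replicates 1 and 2 and to 182 and 175 without sepal replicates 1 and 2. The S10 count fell to between 823 and 950 without petal replicate 2 or 3 or sepal replicate 1 or 2. At S9 leaving out sepal replicate 1 or 2 gave 5589 and 14341 calls, and leaving out petal replicate 1 or 2 gave 35 and 49. Each of these fits has 1 library in an arm and takes the spread from the 2 libraries of the other organ, so the lone library is assumed to vary as they do.

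The direction of the S12 features was already visible at S10, in libraries that had not chosen them. Of 899 petal-high features tested at S10, 143 (15.9%) were called higher and 5 lower, and 81.5% were positive, with a median log2 fold change of 0.58. Of 2138 sepal-high features, 823 (38.5%) were called lower and 1 higher, with a median of -1.28. Among all features tested at both S10 and S12, 1.65% were called higher and 6.38% lower at S10. Of those features 50.6% were positive, with a median of 0.01. At S16 the same lists gave 60 of 760 (7.89%) higher and 10 lower, with a median of 0.55, and 291 of 2122 (13.7%) lower and 13 higher, with a median of -0.78. Among all features tested at both S12 and S16, 1.2% were called higher and 2.76% lower at S16, with a median of -0.02. Seen from the other side, 50.2% of the S10 and 30.3% of the S16 calls higher in petals were S12 calls in the same direction, and so were 74.5% and 63.8% of the calls lower in petals. Of 15819 features tested at S10, S12 and S16, 21 were called higher in petals at each and 167 were called lower at each. Opposite calls were found for 6 features between S10 and S12 and for 23 between S12 and S16.

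The level of the lists was followed on 1 scale of all libraries, as the median log2 CPM over a list in each library. Petal-high features kept their level in lateral petals from S9 (4.89 ± 0.05, SD, n = 2) through S10 (4.87 ± 0.15, n = 3) to S12 (4.91 ± 0.05, n = 3), and stood at 3.41 ± 0.15 (n = 3) at S16. In lateral sepals they read 4.3 ± 0.19 at S9 (n = 2), 4.22 ± 0.16 at S10, 3.59 ± 0.08 at S12 and 2.71 ± 0.05 at S16 (n = 3 each). The S12 gap thus went with a lower sepal level at S12 and a level petal value. Sepal-high features read 3.55 ± 0.14, 3.79 ± 0.13, 3.95 ± 0.06 and 4.71 ± 0.16 in lateral petals over the 4 stages, and 4.56 ± 0.49, 5.08 ± 0.22, 5.41 ± 0.04 and 5.53 ± 0.13 in lateral sepals. They were higher at later stages in both organs. The S12 values of lateral organs chose these lists and carry no test. The median over all features tested lay between 4.04 and 4.13 in these organs at S10 and S12. It was lower at S16 (3.9 ± 0.16 in petals, 3.96 ± 0.13 in sepals) and in lateral sepals at S9 (3.59 ± 0.68).

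**Figure D5:**
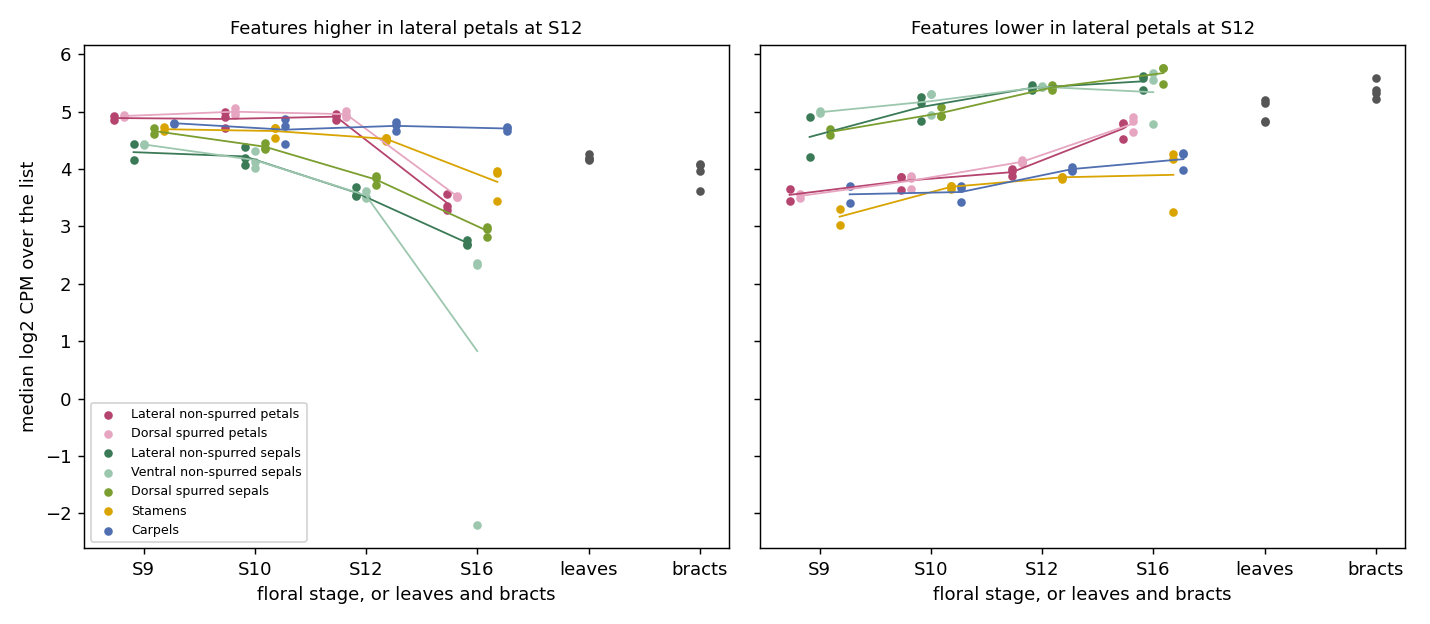
Points are libraries, placed by stage or as leaves and bracts (x axis), with the median log2 CPM over the 935 petal-high (left) or 2237 sepal-high features (right) on the y axis; lines join group means. Petal-high features stay near 4.9 in both petal types to S12 while the 3 sepal types descend, and 1 ventral sepal library at S16 lies far below the rest, at -2.21.

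Sepals outside the 6 libraries showed the lower S12 level as well; these comparisons of S12 with S10 were added after the data were seen. In ventral sepals 95 of 852 petal-high features (11.2%) fell from S10 to S12 and 9 rose, where 2.48% of all features fell. In dorsal sepals 111 of 876 (12.7%) fell and 19 rose, where 2.93% of all features fell. The median log2 change was -0.4 in each. Without replicate 3 of the S12 libraries, the shares that fell were 18.3% in ventral and 22% in dorsal sepals, where 7.91% and 6.9% of all features fell. In dorsal petals 192 of 920 (20.9%) fell and 201 (21.8%) rose, with a median of 0.05, where 10.9% of all features fell and 11% rose. Sepal-high features rose for 138 of 2228 (6.19%) in ventral sepals, 235 of 2223 (10.6%) in dorsal sepals and 445 of 2078 (21.4%) in dorsal petals, where 1.41%, 2.88% and 11% of all features rose.

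Whether the petal-sepal difference changed from S10 to S12 was tested feature by feature. The change passed for 56 of 20376 features (0.275%), positive for 50 (0.245%) and negative for 6 (0.0294%). Of the 50 features, 13 were called higher and 13 lower in petals at S12, and 24 were not called. The 6 others were all called lower at S12. Over all features tested at S12, 5.04% were called higher and 12.1% lower. Because the S12 libraries enter both the S12 calls and this test, nothing is read from how the calls split. The count fell to between 17 and 28 without any 1 of petal replicates 1 and 3 or sepal replicates 1, 2 and 3 at S12, or without petal replicate 1 at S10.

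The most negative of these changes belonged to a feature that was low in petals at both stages. DN47763_c1_g2_i7, 1 of 2 features of its gene, read 9.08, 2.76 and 4.32 CPM in lateral petals at S10 and 0.632, 0.747 and 0.524 CPM at S12. In lateral sepals it read 133, 114 and 74.3 CPM at S10 and 236, 169 and 291 CPM at S12. Petals were lower and sepals higher at S12 with no overlap in either organ. The log2 difference changed by -4.15 (SE 0.56, edgeR adjusted p = 0.00271), in all 15 alternatives. At S16 both organs were higher, with 77.5, 44.1 and 61.5 CPM in petals and 936, 757 and 750 CPM in sepals.

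DN42704_c1_g2_i1 read 27, 20.8 and 5.89 CPM in lateral petals at S10 and 29.3, 21.9 and 9.35 CPM in lateral sepals, which overlapped. At S12 petals read 1.63, 2.62 and 1.92 CPM and sepals 26.3, 22.8 and 24.1 CPM. The organs separated at S12 through the low petal values, with a change of -3.35 (SE 0.67, edgeR adjusted p = 0.0406) that was lost in 10 of 15 alternatives, where the adjusted p reached 0.173. At S16 both organs were far higher than at S10 and S12, with 1180, 1050 and 782 CPM in petals and 996, 668 and 555 CPM in sepals.

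The 2 largest positive changes came from features with no count in lateral petals at S10. DN36720_c0_g1_i1 had 9.82, 3.91 and 16.5 CPM in lateral sepals at S10, at least 73.7-fold more than petals. At S12 petals read 6.23, 4.56 and 4.71 CPM and sepals 2.97, 3.8 and 7.73 CPM, which overlapped. Its change of 9.53 (SE 1.78, edgeR adjusted p = 0.0373) was lost in 11 of 15 alternatives, where the adjusted p reached 0.137. DN45235_c0_g1_i13, 1 of 3 features of its gene, had 12, 1.78 and 0.729 CPM in lateral sepals at S10. Their mean, led by replicate 1, was at least 35.2-fold above petals, a bound that covers counting error only. At S12 the feature read 7.14, 3.44 and 7.16 CPM in petals and 3.5, 2.17 and 1.09 CPM in sepals. Its change of 9.72 (SE 1.84, edgeR adjusted p = 0.0398) was lost in 9 of 15 alternatives, where the adjusted p reached 0.133.

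From S12 to S16 the difference changed for 446 of 20376 features (2.19%), with 244 positive (1.2%) and 202 negative (0.991%) changes. Of the 244 positive features, 159 were called lower in petals at S12, 7 were called higher and 78 were not called. Of the 202 negative features, 69 were called higher at S12, 15 lower and 118 were not called. The same S12 libraries enter the S12 calls and this test, so nothing is read from how the calls split over the signs. The count was 254 without petal replicate 2 at S12, 266 without petal replicate 3 at S12, 258 and 291 without sepal replicates 2 and 1 at S12, and 695 without petal replicate 3 at S16.

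DN37403_c0_g1_i1 had the largest positive change. At S12 it read 0.0903, 0.0747 and 0.175 CPM in lateral petals, which is 4 counts, and 233, 168 and 159 CPM in lateral sepals. Each petal value lay below the level of 3 counts in 1 library, so the size of the change is uncertain. At S16 the feature read 8260, 8290 and 2830 CPM in petals and 5290, 6220 and 2600 CPM in sepals. The organs were fully apart at S12 and overlapped at S16, when both organs were far higher. The change was 11.01 on the log2 scale (SE 1.23, edgeR adjusted p = 0.00014) and was called in all 15 alternatives. Dorsal petals were as low at S12 (0.0577 to 0.286 CPM), and dorsal sepals read 80.7 to 238 CPM.

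DN40636_c1_g1_i1 went the other way. In lateral petals it read 24, 20.9 and 30.8 CPM at S10, 8.94, 4.78 and 4.97 CPM at S12 and 0 in all 3 libraries at S16. Lateral sepals read 0.849, 0.181 and 0.271 CPM at S12 and 1.91, 0.727 and 6.72 CPM at S16. Their S16 mean, led by replicate 3, was at least 24.3-fold above petals, a bound that covers counting error only. The order of the organs thus turned round between the stages, with a change of -11.51 (SE 2.46, edgeR adjusted p = 0.0219) that was lost in 4 of 15 alternatives, where the adjusted p reached 0.0664. DN44806_c0_g1_i1, 1 of 4 features of its gene, was near 0 in both organs at S12 (0.0903 to 0.318 CPM). At S16 it read 4.57, 7.04 and 3.9 CPM in petals and had no count in sepals, at least 38.1-fold less. Its change of 9.45 (SE 2.31, edgeR adjusted p = 0.0453) was lost in 13 of 14 alternatives, where the adjusted p reached 0.116.

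The most negative change rested on single libraries. DN28693_c0_g1_i1 read 0, 145 and 0.262 CPM in lateral petals at S12 and 0, 0.0905 and 0 CPM in lateral sepals. At S16 it read 0.352, 0.542 and 0 CPM in petals and 0.359, 0.121 and 26.2 CPM in sepals. Petal replicate 2 at S12 and sepal replicate 3 at S16 were thus the only high libraries among these 12. Stamens held 273 to 734 CPM at S12. Petal replicate 2 had the highest stamen-set median of the petal libraries. The largest stamen-set share of counts was in petal replicate 1 (2.38% against 2.25% in replicate 2), where this feature read 0 CPM. The part of RNA from stamens in these values was not tested. The change of -14.6 (SE 3.7, edgeR adjusted p = 0.0485) was -6.31 (adjusted p = 0.588) without petal replicate 2 and -9.45 (adjusted p = 0.383) without sepal replicate 3.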

How the data were processed

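Libraries were grouped by sample title. The deposited files hold estimated counts per feature, not normalized; TopHat2 and RSEM are listed in the submitters' processing notes, with neither version nor role. For the reference, annotation and strandedness nothing is given in the sources used here. RSEM divides reads of near-identical features by estimation, and without strand the reads of a gene and an antisense partner cannot be told apart. The IDs are not paired with gene names, so planned lists of genes by name were not analysed here. The members and lists were chosen with earlier results of these data known.

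Estimated counts were rounded, and edgeR 4.0.16 was run under R 4.3.3 (filterByExpr, TMM factors, robust quasi-likelihood F tests), each pair of groups in its own fit; the common biological coefficient of variation at S12 was 0.28. Interactions of position used 12 S12 libraries, and those of stage used 18 lateral libraries of S10, S12 and S16. A call is a Benjamini-Hochberg adjusted p under 0.05 over all features tested. Each standard error (SE) is the size of the log2 fold change divided by the square root of its F statistic. Such values are rough where a group had no count. Log2 CPM uses a prior count of 2. Floors (3 counts over a group) and exact 95% counting intervals cover counting error only. Organ sets came from 1 fit of leaf, bract, stamen and carpel libraries, with stamens and carpels of S9, S10, S12 and S16.

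Named features are, at S12, the 2 most abundant per direction among those called, at least 8-fold apart and not overlapping, and for each interaction the 2 highest and 2 lowest log2 differences among calls with a mean of at least 1 CPM. Groups share replicate numbers, and the labels do not say what a number marks. Same-numbered lateral libraries at S12 deviated together (correlations 0.443, 0.188 and 0.102), as did the dorsal pair (0.32 to 0.418) and dorsal petals with ventral sepals (0.327 to 0.503), so a replicate block was run. Alternatives were DESeq2 1.42.0, RLE factors, no filter, other libraries sharing the spread, summed assembly genes, thinning to the smallest total and leaving out each library.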

Additional observations from a re-analysis of the deposited data

Results flagged for a closer look

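The petal-sepal difference was tested for a difference between positions and between stages, and the features that passed are listed here because the effect of 1 contrast differed between 2 sets of groups. It differed between lateral and dorsal organs at S12 for 269 features, between S10 and S12 for 56 and between S12 and S16 for 446. By edgeR's interaction test, DN30693_c0_g1_i1 (9.49), DN46889_c0_g3_i1 (8.1), DN33714_c0_g1_i1 (-9.93) and DN17121_c0_g2_i1 (-6.83) had the most extreme log2 differences between lateral and dorsal pairs. Between S10 and S12 these were DN45235_c0_g1_i13 (9.72), DN36720_c0_g1_i1 (9.53), DN47763_c1_g2_i7 (-4.15) and DN42704_c1_g2_i1 (-3.35). Between S12 and S16 they were DN37403_c0_g1_i1 (11.01), DN44806_c0_g1_i1 (9.45), DN28693_c0_g1_i1 (-14.6) and DN40636_c1_g1_i1 (-11.51).

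One leaf library stood far from the other leaf libraries for DN47763_c0_g2_i1, at 8.48 CPM against a lowest value of 0.0959 CPM. Chance sets about 1 in 20 groups apart by the gap measure used.

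The 4 silencing libraries enter no comparison above. Their tissue is labelled lateral sepals, while the text on the series' design speaks of petals. Their sample labels give no stage, and that text places them at stage 12. The value column of the 2 libraries titled ans is headed MOCK, and 1 of the 2 titled ans-lmi1 has a genotype label that names LMI2, so what each silencing library stands for is uncertain. The mean log2 CPM of the petal-side minus that of the sepal-side list was 0.03 and 0.53 in the 2 libraries titled ans-lmi1 and 0.26 and 0.47 in the 2 titled ans. All 4 lay above the wild-type lateral sepals at S12 (-2.73 to -2.39) and below the wild-type lateral petals (0.72 to 1.33). The difference was not tested.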

How the results depend on the processing

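Over 40 results and 458 alternatives, 328 values kept direction and side of the threshold or stayed near the reported value, 72 were no longer called, 58 moved and 0 reversed. At S12, the 935 higher and 2237 lower features became 125 and 573 with the spread shared by 22 lateral libraries (82.1% of calls lower, and 692 of the calls kept), and 591 were higher with the spread of 15 petal and sepal libraries at S12. Leaving out 1 library gave 458 to 1302 higher features (588 without sepal replicate 1, 458 without petal replicate 2 and 481 without petal replicate 3) and 1528 to 2560 lower ones. With DESeq2 1287 were higher and 2652 lower. The replicate block gave 1246 higher and 2455 lower, and changed no call of the 4 features named at S12.

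With sets picked at 2-fold, the median was -0.62 for leaf, -1.12 for bract and -0.77 for vegetative features. Leaving out 1 library gave -0.84 to -0.65 for the leaf median, 10.5% to 14.2% for stamen-set features higher and 13.2% to 28.7% for carpel-set features higher. Over all features the calls higher ran from 458 to 1302 in the same fits. The sepal-side median was -1.72 with its list picked without replicate 3 of dorsal and ventral sepals.

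DESeq2 called 3867 features in the dorsal pair, 4345 between dorsal petals and ventral sepals, 378 at S9, 2184 at S10 and 1884 at S16. It called 682 interactions of position, 284 from S10 to S12 and 1176 from S12 to S16. The replicate block, with same-numbered libraries paired as described, gave 3915 calls in the dorsal pair, 4592 between dorsal petals and ventral sepals and 675 interactions of position. At S16 the block gave 946. Leaving out 1 library gave 1176 to 3992 calls in the dorsal pair, 1356 to 4482 between dorsal petals and ventral sepals, 35 to 14341 at S9, 823 to 1373 at S10 and 121 to 971 at S16. It gave 17 to 49 interactions from S10 to S12 and 254 to 695 from S12 to S16. The causes were not tested.

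Depth limits features with few counts: with 3 counts equal to up to 0.409 CPM in these libraries, differences among features under that level were not detectable.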
